A study of Mus musculus with 107 samples.

Results

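NPC were derived 3 separate times from cultures of one mouse ESC line and compared at passage 15, to ask how far cells made by one protocol differ from derivation to derivation. The 14 libraries were chosen by title out of the 107 of the whole series: 4 of the first derivation (NPC P15 D1), 6 of the second (NPC P15 D2) and 4 of the third (NPC P15 D3). All groups share the C57BL/6 strain and the genotype RiboTag +, in which ribosomal protein Rpl22 carries an HA tag so that RNA on ribosomes can be pulled down with an antibody, and all come from a single female line, so the derivations are repeats of the culture procedure and not of the animal. Embryoid bodies were neurally induced with retinoic acid (50 nM) and purmorphamine, an SHH agonist (500 nM), and the resulting progenitors were kept growing in EGF and FGF (100 ng/ml each) without any differentiation treatment. HA-bound, poly-A selected RNA was sequenced. NPC P5 and NPC P30 of the first derivation and the ESC (n = 4 each, same line and genotype) are used only as a yardstick. The labels do not say whether the libraries of a derivation came from separate cultures, so the p-values measure the spread between these libraries, which may be technical.

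Neural progenitors are dividing cells that can give neurons, astrocytes and oligodendrocytes. Their position along the body axis is written in Hox genes under the control of retinoic acid, and their dorsal to ventral position in homeodomain and bHLH factors under the control of SHH, Wnt and BMP signals. Notch signalling holds them in the progenitor state, and DNA methylation at promoters keeps germline genes, one allele of each imprinted gene and most isoforms of the clustered protocadherins silent.

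Totals ranged from 44477311 to 79934282 counts in D1, from 50673074 to 79578983 in D3 and from 13473855 to 18085106 in D2, whose file headers name a single set of reads where the others name a pair. Read type and derivation therefore cannot be told apart in D2, and the test was made between D3 and D1. All of the 10 defining progenitor markers, Nes, Sox1, Sox2, Sox9, Fabp7, Vim, Pax6, Hes1, Hes5 and Slc1a3, were counted in each derivation, with Nes at 1446 ± 116 CPM (counts per 1000000 library counts after TMM scaling, SD, n = 4) in D1, 1219 ± 242 in D3 (n = 4) and 1064 to 1881 in D2 (n = 6). Sox1 and Hes5 were nearly absent from D3, at 0.209 to 0.746 and 0.242 to 0.487 CPM. Hes5 was low in D1 too, at 0.928 to 2.28 CPM. Summed endothelial markers stayed at 1.42 to 12.0 CPM and myeloid markers at 0.4 to 3.53 CPM in the 14 libraries, while the summed endoderm list was at 57.0 to 70.7 CPM in D1, 35.4 to 43.0 in D2 and 39.7 to 43.3 in D3. Of that list Sox17, Krt8 and Krt18 were at or under 3 counts in all libraries, and Gata4, a factor of endoderm and heart, was at 38.0 to 45.0 CPM in D1 and 18.9 to 21.5 CPM in D3. Rpl22, the tagged gene, was at 95.1, 99.7, 99.2 and 92.6 CPM in D1 and at 166, 177, 218 and 207 CPM in D3.

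The difference between D3 and D1 ran with transcript length. The median log2FC (D3 minus D1) was 0.57 in the decile of genes with the shortest union of exons and -0.39 in the decile with the longest, where the same medians were -0.15 and 0.14 for D2 against D1, 0.21 and -0.15 for NPC P5 against D1 and 0.05 and 0.01 for NPC P30 against D1. NPC P5 thus had a gradient in the direction of that of D3, and a smaller one. D3 replicates 3 and 4 carried more of it than replicates 1 and 2, with medians of 0.8 and 0.75 against 0.47 and 0.57 in the shortest decile. Each list below was therefore counted again after the length curve of every library had been taken out (a length offset) and with D3 replicates 1 and 2 only, both chosen after seeing the data. Named genes whose call was lost with the length offset are given as such, and what gave rise to the gradient was not tested.

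In bulk libraries fewer cells of a type and less RNA per cell cannot be told apart. D3 differed from D1 in about as many genes upwards as downwards. Of 14370 genes tested with edgeR's quasi-likelihood test, 6904 (48.0%) passed an adjusted p of 0.01, 3390 (23.6%) higher and 3514 (24.5%) lower in D3, and 2168 (15.1%) passed with an absolute log2FC of at least 1. As a yardstick on the same D1 libraries, 5119 of 14413 genes (35.5%) were called for NPC P5 against NPC P15 D1 and 4317 of 14397 (30.0%) for NPC P30 against it, and 6.68% and 7.37% passed with an absolute log2FC of at least 1. The median absolute log2FC was 0.51 between derivations, 0.34 to P5 and 0.31 to P30. These 3 comparisons share the D1 libraries, and the difference between them was not tested. Set against the mean of passages 5, 15 and 30 of the first derivation, D3 had 7113 of 15348 genes (46.3%) called. Of the genes named below as higher or lower than D1, Fabp7, Hoxc8, Pdgfra, Fgfr4 and Nkx2-2 were among those that did not pass there. Levels at P5 and P30 are given below for some of the named genes only. With the length offset 3099 genes were higher and 3230 lower of 13257 with a length.

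**Figure D1:**
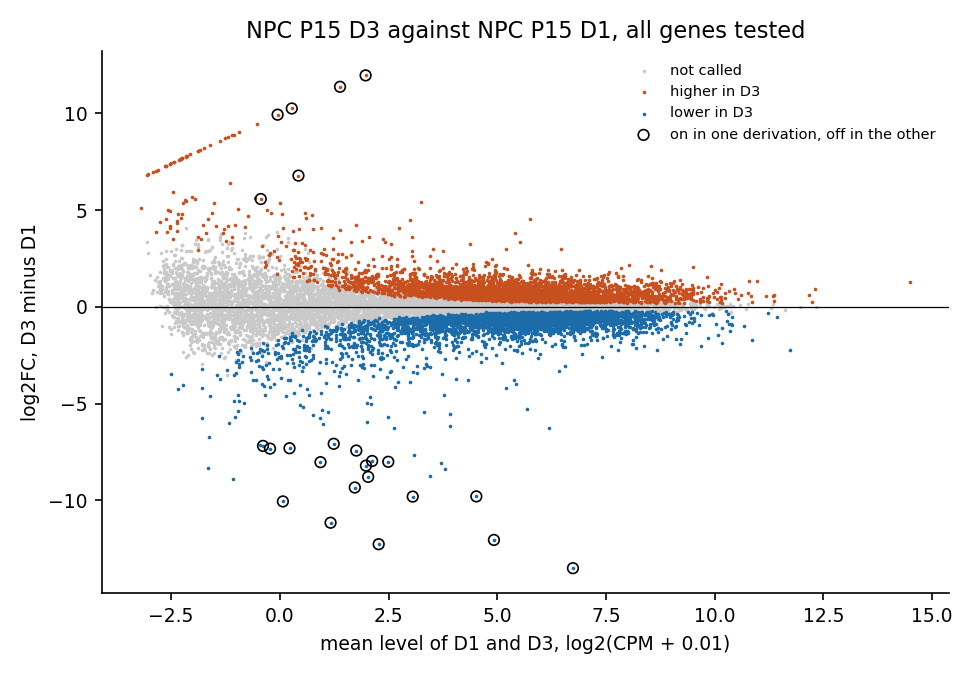
Each point is one of the 14370 genes tested, with its mean level in D1 and D3 as log2(CPM + 0.01) on the x axis and the log2FC, D3 minus D1, on the y axis. The 3390 genes higher and 3514 lower in D3 are coloured, and the ringed genes, on in every library of one derivation and off in every library of the other, lie at the outer edge.

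The sharpest differences were genes present in one derivation and missing from the other. With on set at 1 CPM or more in every library and off at under 0.1 CPM in every library, 18 genes were on in D1 and off in D3, and 6 were on in D3 and off in D1. The 6 became 11 without D1 replicate 3 and 12 without D1 replicate 4. By the same rule, 1 gene was on in D1 and off at P5, 4 were on in D1 and off at P30, 3 were on at P5 and off in D1, and 7 were on at P30 and off in D1. Since the rule picked the genes by their levels in D1 and D3, those levels are a description.

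Trap1a (chrX:139333683-139338169, GRCm38.p6), a gene known as a tumour rejection antigen, had the highest D1 level of the 18. It was at 210, 221, 215 and 209 CPM in D1 and at 0, 0, 0.0175 and 0.0385 CPM in D3, 4 counts in all, a ratio of 12951 with a 95% exact Poisson interval of 5058 to 47531 that covers counting error only. The interval takes counts as independent, although both mates of a pair were counted, so it is too narrow even for counting error. The same holds for the interval of Evc2 below. Trap1a was at 0 in each of the 6 D2 libraries, at 0 to 0.812 CPM in P5 and at 0.013 to 0.0621 CPM in P30, so of the NPC groups used here D1 at passage 15 alone held more than 1 CPM of it, while the ESC mean was 199 CPM.

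Mbd1, which codes for a protein that binds methylated CpG, was at 54.1, 66.7, 60.9 and 61.3 CPM in D1 and at 0, 0, 0.0349 and 0.0128 CPM in D3. Evc2 (chr5:37338478-37425055), a component of primary cilia needed for hedgehog signalling, was at 39.9, 43.8, 54.8 and 44.9 CPM in D1 and at 0.0706, 0.0807, 0.0698 and 0 CPM in D3, a ratio of 915 (interval 524 to 1770). Both were on in D2, at 40.4 to 46.1 and 56.9 to 66.4 CPM, and at P5 and P30. Magohb (chr6:131284389-131293244), a second gene for the Mago subunit of the exon junction complex, had 10.4, 11.1, 9.96 and 7.21 CPM in D1 and no read in any D3 library, so D1 was at least 189-fold higher when D3 is set at the floor of 3 counts in each library. The imprinted zinc finger gene Plagl1 (chr10:13090832-13131694) was at 5.76, 6.16, 5.59 and 8.8 CPM in D1 against 0.0177, 0, 0 and 0.0128 CPM in D3, and at 9.49 to 12.3 CPM in D2. By the on and off rule none of these genes could overlap between D1 and D3. D2 stood with D1 in each but Trap1a.

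Hoxb13, the most posterior gene of the Hoxb cluster, was at 11.5, 11.6, 12.5 and 9.03 CPM in D1, at 6.71, 8.43 and 8.87 CPM (lowest, median and highest) in D2 and at 0.0353, 0.0807, 0.0349 and 0.0256 CPM in D3. Its neighbour Gm11538 was on and off with it, and their reads may not be fully separable. Cavin3, one of the proteins that coat caveolae, was at 9.26, 17.3, 23.3 and 16.5 CPM in D1 and at 0.0353, 0.0403, 0 and 0 CPM in D3. Cavin1, another coat protein of caveolae, went the other way, at 18.0 to 22.3 CPM in D1 and 186, 189, 142 and 116 CPM in D3. Rtl8a and Rtl8b, a pair of retrotransposon-derived genes that lie 25.4 kb apart on chromosome X, were off in D3 together, but they are near-identical copies and their counts are uncertain. Of the remaining genes, Trim25, Shox2, Cpped1, Gpx7, Zfp182, 3830406C13Rik and Rab33a had means of 1.5 to 8.66 CPM in D1. Of the 18 genes, 5 (27.8%), namely Trap1a, Rtl8a, Rtl8b, Zfp182 and Rab33a, lay on chromosome X, which held 3.45% of all genes on in D1.

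In the other direction, Vgll2 (chr10:52022502-52028471), a cofactor of TEAD transcription factors, had no read in D1 and was at 5.67, 5.37, 5.05 and 4.73 CPM in D3, at least 110-fold higher. It was at 0 to 0.368 CPM in D2 and at 1.71 to 2.25 CPM in P5. Cemip, which binds and degrades hyaluronan, was at 0, 0.0508, 0.031 and 0 CPM in D1, at 2.88, 3.11, 3.11 and 1.51 CPM in D3 and at 4.76 to 6.55 CPM in D2. Pdgfb, a ligand of PDGF receptors, had no read in D1 and 1.76 to 2.68 CPM in D3, and Magee2, a MAGE family gene of chromosome X, had none in D1, 1.73 to 2.09 CPM in D3 and 1.68 to 3.42 CPM in D2. Npvf, a neuropeptide gene, averaged 1.43 CPM in D3 with a single D1 library, replicate 1, above 0.

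**Figure D2:**
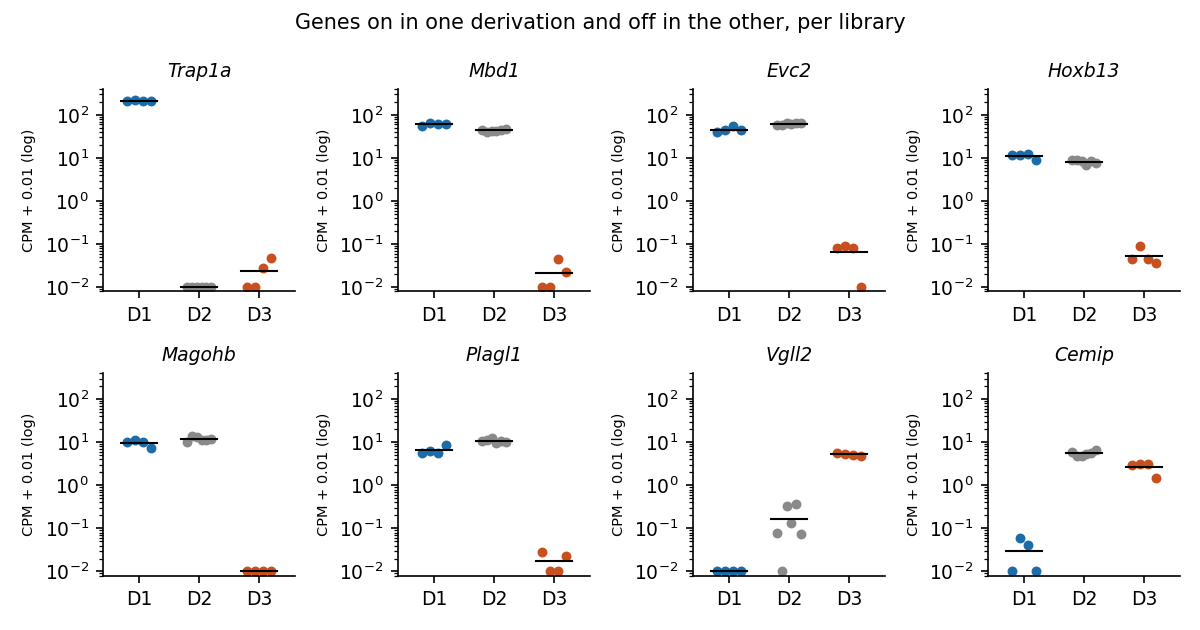
Level of 8 genes per library as CPM + 0.01 on a log axis, with D1 (n = 4), D2 (n = 6) and D3 (n = 4) side by side and a bar at each mean; 0 CPM sits at 0.01. Mbd1, Evc2, Hoxb13, Magohb and Plagl1 have D2 beside D1, Trap1a has D2 at 0, and Cemip has D2 beside D3.

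D2 was on for 10 of the 18 genes missing from D3, off for 1 and between for 7. Of the 6 genes missing from D1, D2 was on for 3 and off for none. None of the 6 was off at another passage of the first derivation. At P5 1 was on and 5 were between, and at P30 2 were on and 4 between. No gene was off in D1 and D3 and on in D2. Of the 18, 15 were on at P5 and 10 at P30, and 10 were on at all of the passages of the first derivation, among them Cavin3, Evc2, Hoxb13, Magohb, Mbd1, Plagl1 and Trim25. In the ESC 9 were on and none was off.

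Of the 36 nearest tested genes on either side of the 18, 10 (27.8%) were lower in D3 and 10 higher, beside 24.5% lower and 23.6% higher among all genes tested. The 10 lower ones include 4 that are themselves among the 18, Hoxb13 and Gm11538 side by side and Rtl8a and Rtl8b side by side. Evc, which lies 1.53 kb from Evc2 and acts with it, was at 34.7 CPM in D1 and 32.6 CPM in D3 (means, n = 4; log2FC -0.10, adjusted p = 0.49 in edgeR's quasi-likelihood test), while Stk32b, 21.8 kb away on the other side, had 59.7 CPM in D1 and 13.2 CPM in D3 (both genes chosen after their values were seen).

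The 250 bases before the start of 5 of these genes are shown because each of them was read in every library of one derivation and in almost none of the other. They are written 5′ to 3′ on the strand of the gene, from RefSeq on GRCm38.p6, with each CpG, the letters that DNA methylation marks, in capitals. Trap1a (chrX:139333433-139333682, plus strand), Evc2 (chr5:37338228-37338477, plus), Magohb (chr6:131293245-131293494, minus), Plagl1 (chr10:13090582-13090831, plus) and Vgll2 (chr10:52022252-52022501, plus) hold 7, 11, 16, 19 and 15 CpG.
Trap1a: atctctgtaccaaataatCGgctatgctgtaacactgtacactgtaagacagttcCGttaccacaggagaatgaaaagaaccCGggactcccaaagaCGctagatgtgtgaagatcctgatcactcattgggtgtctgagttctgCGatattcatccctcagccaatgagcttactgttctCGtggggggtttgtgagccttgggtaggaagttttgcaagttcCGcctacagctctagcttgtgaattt
Evc2: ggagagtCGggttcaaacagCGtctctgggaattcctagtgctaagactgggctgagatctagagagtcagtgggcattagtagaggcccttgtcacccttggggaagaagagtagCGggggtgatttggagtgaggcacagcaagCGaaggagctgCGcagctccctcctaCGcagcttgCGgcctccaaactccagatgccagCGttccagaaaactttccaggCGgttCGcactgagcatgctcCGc
Magohb: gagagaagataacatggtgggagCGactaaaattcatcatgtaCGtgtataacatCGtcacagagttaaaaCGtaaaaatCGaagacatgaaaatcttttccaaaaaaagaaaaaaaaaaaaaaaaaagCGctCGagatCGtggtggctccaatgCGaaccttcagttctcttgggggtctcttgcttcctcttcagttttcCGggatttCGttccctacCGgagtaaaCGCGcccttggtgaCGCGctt
Plagl1: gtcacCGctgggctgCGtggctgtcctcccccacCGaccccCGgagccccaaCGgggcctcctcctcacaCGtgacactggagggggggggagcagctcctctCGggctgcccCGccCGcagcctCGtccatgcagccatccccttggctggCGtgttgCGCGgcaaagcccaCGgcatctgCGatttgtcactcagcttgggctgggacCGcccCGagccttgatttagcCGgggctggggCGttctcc
Vgll2: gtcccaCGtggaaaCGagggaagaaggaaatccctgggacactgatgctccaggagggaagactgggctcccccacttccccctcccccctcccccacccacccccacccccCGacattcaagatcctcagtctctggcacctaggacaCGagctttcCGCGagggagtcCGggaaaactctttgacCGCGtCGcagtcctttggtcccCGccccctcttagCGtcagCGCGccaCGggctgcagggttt
Among the promoters of the 10922 tested genes in that table, 84.5% hold at least the 7 CpG of Trap1a and 40.0% at least the 19 of Plagl1. The median was 16 CpG in all, 11 (range 5 to 19) in the 11 of 18 genes missing from D3 that have a promoter there, and 12 in 4 of the 6 missing from D1. Methylation was not measured, so these counts describe the sequence alone.

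More Hox genes were lower than higher in D3. Of 29 Hox genes tested, 15 were lower and 2 higher, with a median log2FC of -0.6 against 0.02 for all genes; the length offset gave 19 lower and none higher. Hoxb9 (thoracic identity) was at 57.3, 59.6, 62.8 and 64.3 CPM in D1, at 8.05, 8.15, 7.93 and 8.56 CPM in D3 and at 101 to 122 CPM in D2. The log2FC was -2.91 ± 0.0866 (SE, adjusted p = 9.4e-11), and the levels of the 3 derivations did not overlap. Hoxb5 was at 4.85, 3.56, 2.68 and 5.07 CPM in D1 and at 0.494, 0.444, 0.663 and 0.641 CPM in D3, and Hoxc8 had a log2FC of -3.67 (adjusted p = 0.00025). Hoxc8 was at 0.175 to 0.459 CPM at P5 and 0 to 0.117 CPM at P30, near its D3 level of 0.0353 to 0.256 CPM, and against all passages of the first derivation it was not called (log2FC -1.28, adjusted p = 0.14). Hoxa9 was at 2.74, 2.76, 1.95 and 2.43 CPM in D1, at 0.282, 0.504, 0.262 and 0.308 CPM in D3 and at no more than 0.0735 CPM in D2. Hoxb9 and Hoxa9 thus order the derivations differently, with D2 highest for one and lowest for the other. Hoxb9 also varied with passage, and was at 17.2 CPM at P5 and 134 CPM at P30 in the first derivation (means, n = 4). So did the list: at P5 17 of 29 Hox genes were lower than in D1 and 1 higher (median log2FC -0.74). At P30 5 of 28 were lower and 12 higher. D3 against all passages of the first derivation had 12 of 29 lower and 1 higher. Of the called Hox genes, D2 was on the D1 side for 9 and on the D3 side for 8.

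Of the 12 tested regional factors of forebrain, midbrain and isthmus, 2 were higher and 3 lower. Gbx2, a factor of the anterior hindbrain, was at 11.6, 14.7, 10.7 and 10.8 CPM in D1 and at 26.5, 27.0, 23.8 and 20.4 CPM in D3 (log2FC 1.02 ± 0.133, adjusted p = 2.6e-05), and Emx2, of the dorsal forebrain, had a log2FC of -0.85. Lhx2, an anterior factor, had one of 0.56, a call lost without D1 replicate 1 or 4. Otx2 was listed at 0 in all 14 libraries.

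Ventral factors and the hedgehog pathway were lower in D3 in 11 of 19 genes tested and higher in 2 (median log2FC -0.88; with the length offset 12 and 2). Olig1, a bHLH factor of ventral progenitors and the oligodendrocyte lineage, was at 5683, 5437, 5682 and 5664 CPM in D1, at 1719, 1814 and 1899 CPM (lowest, median and highest) in D2 and at 1272, 1228, 1131 and 1220 CPM in D3. Its log2FC was -2.22 ± 0.0472 (adjusted p = 5.8e-12) without overlap between any of the derivations. Dbx2, a homeodomain factor of progenitors at intermediate dorsal to ventral positions, was at 177, 162, 164 and 165 CPM in D1 and at 22.6, 20.5, 18.0 and 19.2 CPM in D3, with D2 at 133 to 136 CPM near D1. Gas1, a co-receptor for SHH, was at 922, 889, 949 and 951 CPM in D1 and at 255, 255, 257 and 231 CPM in D3, with D2 lower still at 127 to 162 CPM. Olig2 (log2FC -0.88), Nkx2-2 (-0.38) and Foxa1 (-1.96) were lower as well, and Hhip, a target and inhibitor of the pathway, was higher (0.97, adjusted p = 7.9e-05). The Nkx2-2 call was lost without D1 replicate 1 or 3 or D3 replicate 3 or 4. Nkx6-1 was not called (log2FC 0.52 ± 0.512, adjusted p = 0.4). Summed over the list, D1 held 8584 to 8958 CPM, D2 3127 to 3432 and D3 2601 to 2951, and D2 was on the D3 side for 8 of the 13 called genes. Within the first derivation, 10 of 19 genes of this list were lower at P5 than in D1 and 2 higher. D3 against all passages of that derivation had 9 of 21 lower and 3 higher.

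Of 11 dorsal factors 5 were lower in D3 and none higher (4 of 11 with the length offset, and 3 of 14 with D3 replicates 1 and 2). Zic1 was at 94.3, 97.3, 108 and 107 CPM in D1 and at 47.7, 42.5, 44.1 and 49.3 CPM in D3 (log2FC -1.16 ± 0.0807, adjusted p = 1.4e-07), and Gli3, a repressor of hedgehog targets, and Msx1, a BMP target, had log2FC of -0.85 and -0.81. In the retinoic acid pathway 3 of 12 genes were higher and 5 lower, with the length offset 1 and 4, and with D3 replicates 1 and 2 alone 1 and 1; 3 were lower without D1 replicate 2 or D3 replicate 3. Rara, a receptor, was at 62.3, 52.0, 56.5 and 59.8 CPM in D1 and at 19.1, 18.6, 15.7 and 16.9 CPM in D3, while Crabp1, which carries retinoic acid in the cytosol, was at 0.133 to 1.4 CPM in D1 and at 3.35 to 4.05 CPM in D3. The Crabp1 call was lost with the length offset (adjusted p = 0.013) and with either pair of D3 replicates alone.

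**Figure D3:**
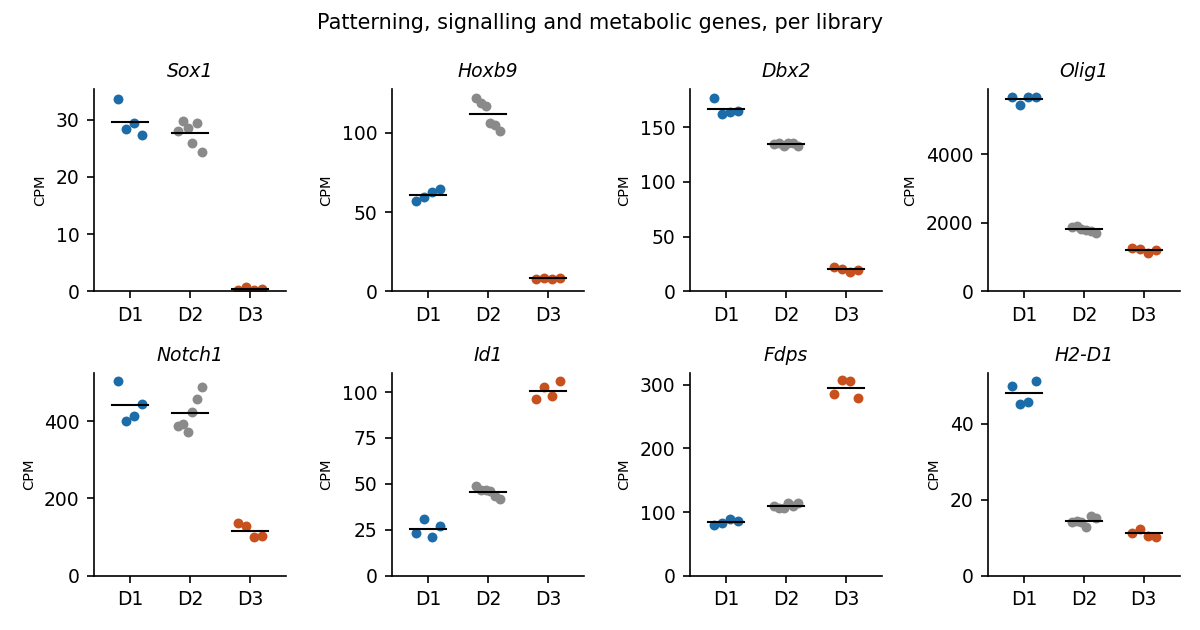
Level of 8 genes per library in CPM on linear axes that start at 0, with D1 (n = 4), D2 (n = 6) and D3 (n = 4) side by side and a bar at each mean. D3 is lowest for Sox1, Hoxb9, Dbx2, Olig1, Notch1 and H2-D1 and highest for Id1 and Fdps, and D2 lies beside D1 for Sox1 and Notch1 but beside D3 for H2-D1.

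Among 27 progenitor and radial glia genes 17 were lower in D3 and 3 higher (median log2FC -0.52, the same with the length offset, which gave 15 and 3). Sox1, an early neural SOXB1 factor, was at 33.7, 28.3, 29.4 and 27.3 CPM in D1 and at 0.318, 0.746, 0.209 and 0.41 CPM in D3, a log2FC of -6.17 ± 0.254 (adjusted p = 1.6e-09). D2 stood with D1 at 24.3 to 29.7 CPM, and within the first derivation Sox1 was at 0.296 to 0.969 CPM at P5 and 36.7 to 41.5 CPM at P30, so its D3 level overlapped that of P5. Its relatives moved less: Sox3 had a log2FC of -1.47 and Sox2 one of -0.52 ± 0.0707 (adjusted p = 3.4e-05), and Sox9, of the gliogenic progenitor, fell from a mean of 383 CPM in D1 to 175 CPM in D3. The levels of Nes (adjusted p = 0.076), Pax6 (0.039), Vim (0.48) and Slc1a3 (0.087) did not pass the test. Fabp7, a lipid carrier of radial glia, was at 511, 526, 532 and 512 CPM in D1 and at 668, 729, 913 and 965 CPM in D3 (log2FC 0.64, adjusted p = 0.00011), a call that was lost with the length offset (log2FC 0.02, adjusted p = 0.75).

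Notch genes were lower in D3 in 13 of 20 and higher in 1 (median log2FC -0.83; 13 and 1 with the length offset). The receptor Notch1 was at 504, 401, 414 and 445 CPM in D1 and at 137, 128, 99.7 and 102 CPM in D3 (log2FC -1.93 ± 0.112, adjusted p = 3.1e-08). The ligand Jag1 was at 155, 150, 132 and 153 CPM in D1 and at 38.1, 36.9, 31.9 and 33.2 CPM in D3. The target Hes1 was at 78.9, 79.6, 72.6 and 89.3 CPM in D1 and at 27.3, 29.0, 36.8 and 31.1 CPM in D3. For all of these genes D2 overlapped the range of D1, with Notch1 at 373 to 488, Jag1 at 132 to 152 and Hes1 at 68.1 to 80.4 CPM. At P5 Jag1 was at 24.7 to 30.1 CPM, under its D3 level. Hes5, another target, had a log2FC of -1.99 (adjusted p = 0.0036), which was lost without any one of D3 replicates 1, 2 and 3.

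BMP pathway genes did not share a direction, with 4 of 24 higher and 7 lower, near the share among all genes. Id1, Id2 and Id3, direct targets that block bHLH factors, were among the higher ones, and Id4 was not. Id1 was at 23.3, 30.6, 21.3 and 27.3 CPM in D1 and at 96.0, 103, 98.1 and 106 CPM in D3 (log2FC 1.96 ± 0.108, adjusted p = 2e-08), Id3 at 84.2, 91.1, 90.4 and 89.5 against 249, 256, 310 and 330 CPM, and Id2 had a log2FC of 0.99. The length offset left log2FC of 1.33, 1.24 and 0.71. The secreted inhibitor Nog (log2FC -2.78, adjusted p = 0.00013) and the intracellular inhibitor Smad7 (-1.57) were lower, while the pseudoreceptor Bambi, also an inhibitor, was higher (0.65, adjusted p = 0.0018, not called with D3 replicates 1 and 2 alone). Of 37 Wnt genes 14 were lower and 5 higher (median log2FC -0.56). The receptor Fzd9 was at 692, 703, 755 and 683 CPM in D1 and at 233, 235, 252 and 266 CPM in D3, and the targets Nkd1 (log2FC -2.27) and Lgr5 (-1.48) were lower, while the ligand Wnt7a was at 19.8, 26.4, 20.7 and 22.5 CPM in D1 and 64.5, 58.6, 59.8 and 56.8 CPM in D3. At P5 and P30 Fzd9 was at 259 to 279 and 334 to 372 CPM, and Wnt7a at 49.7 to 54.6 and 73.6 to 91.9 CPM. Against all passages of the first derivation their log2FC were -0.73 and 0.37. Of 22 genes of the EGF and FGF receptors and their response 14 were lower and 1 higher. They include Egfr (log2FC -1.15 ± 0.075, adjusted p = 7.8e-08), Fgfr4 (log2FC -1.95) and the feedback inhibitor Spry1 (-1.13). For P5 against D1, 14 of 24 genes of this list were lower and 4 higher. D3 against all passages of the first derivation had 13 of 25 lower and 2 higher.

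**Figure D4:**
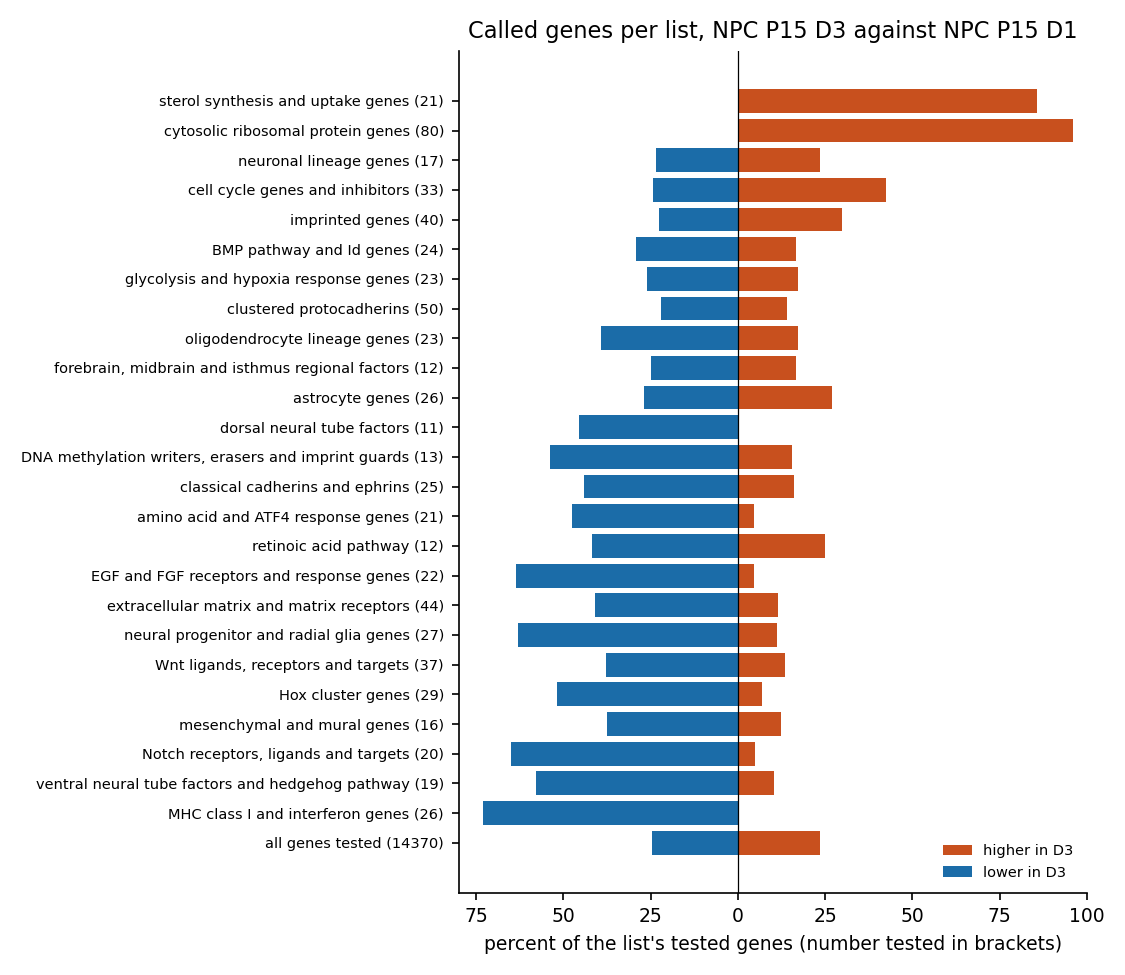
Percent of the tested genes of each list with at least 10 tested that were called higher (right) and lower (left) in D3, with the number tested in brackets, beside 23.6% and 24.5% of all genes tested. Sterol and ribosomal protein genes have none lower, and dorsal and MHC class I and interferon genes none higher.

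Of 26 astrocyte genes 7 (26.9%) were higher and 7 lower, near the 23.6% and 24.5% among all genes (6 and 9 with the length offset). Gfap, the intermediate filament of astrocytes, was at 13.3, 17.6, 13.8 and 15.5 CPM in D1 and at 40.4, 54.3, 48.7 and 32.5 CPM in D3 (log2FC 1.54 ± 0.152, adjusted p = 2.7e-06), with D2 at 50.6 to 54.6 CPM. Mlc1 (log2FC 1.62) and the gap junction gene Gja1 (1.37) were higher as well. At P30 Mlc1 was at 277 to 302 CPM, which overlapped its D3 range of 241 to 290 CPM. Sparcl1, a secreted synaptogenic protein, was at 1364, 1369, 1277 and 1301 CPM in D1 and at 323, 308, 315 and 352 CPM in D3, and Atp1b2, a subunit of the sodium pump of glia, had a log2FC of -2.01. D2 was on the D3 side for Gfap, Mlc1 and Gja1 and on the D1 side for Sparcl1 and Atp1b2. Of 23 oligodendrocyte lineage genes 9 were lower and 4 higher. The receptor Pdgfra was higher in D3 than in D1 (log2FC 0.95 ± 0.0728, adjusted p = 3.1e-07), but at 110.0 to 128 CPM it lay near P5 (117 to 131 CPM) and under P30 (238 to 253 CPM), and it was not called against all passages of the first derivation (log2FC -0.07, adjusted p = 0.24). Cspg4 (log2FC -1.35) and Sox8 (-1.09), markers of the same precursor, were lower. Of 17 neuronal genes 4 (23.5%) were higher and 4 (23.5%) lower, near the share among all genes. The tubulin Tubb3 was at 13.4, 13.7, 12.1 and 12.7 CPM in D1 and at 52.3, 56.6, 46.0 and 39.7 CPM in D3, and Map1b, a microtubule protein, had a log2FC of 1.60. At P30 Tubb3 was above D3, at 98.0 to 102 CPM. Map1b was at 159 to 184 CPM at P5 and 84.3 to 165 CPM in D3. RNA-binding proteins of neurons were lower, Elavl3 (14.9, 16.7, 13.9 and 19.4 CPM in D1 against 1.54, 1.78, 1.61 and 1.21 CPM in D3) and Rbfox3 (log2FC -3.03). D2 was on the D3 side for 7 of these 8 neuronal genes and on the D1 side for none.

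Genes expressed from one parental allele differed in both directions, 12 of 40 higher and 9 lower, near the share among all genes. Besides Plagl1, Zdbf2 was at 0.55, 0.0127, 0 and 0.0221 CPM in D1 and at 3.02, 2.46, 2.29 and 2.46 CPM in D3 (adjusted p = 0.0033, not called with either pair of D3 replicates alone). Mest was at 1025, 979, 996 and 1031 CPM in D1, at 2700, 2718, 2375 and 2348 CPM in D3 and at 2728 to 2966 CPM in D2 (log2FC 1.32 ± 0.0595, adjusted p = 3.8e-09). Its D3 level lay between those of P5 (2161 to 2206 CPM) and P30 (3887 to 4176 CPM). Against all passages of the first derivation the log2FC of Mest was 0.29. Peg3 was at 94.5, 83.2, 94.6 and 96.3 CPM in D1, at 61.5, 52.5, 43.4 and 44.8 CPM in D3 and at 370 to 481 CPM in D2, so that D2 stood outside both. Dlk1 was higher in D3 (log2FC 1.12). Xist, the RNA of the inactive X chromosome, averaged 0.0726 CPM in D1, 0.0267 in D3 and 0 in D2, and 0.283 CPM in the ESC, too low to be tested.

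Rhox5, a homeobox gene of the X chromosome known to be silenced by promoter methylation outside the germline, was at 63.1, 71.6, 70.1 and 73.2 CPM in D1 and at 3.18, 3.83, 4.12 and 3.96 CPM in D3 (log2FC -4.21 ± 0.109, adjusted p = 2.9e-11), with D2 at 25.8 to 30.2 CPM. In the first derivation it was at 812 to 872 CPM at P5 and 2.25 to 3.44 CPM at P30. Trap1a and Rhox5 were the 2 called genes among the 6 tested on the list of methylation-silenced germline genes. Of 13 genes of DNA methylation and its readers 7 were lower and 2 higher, among them Tet3 (log2FC -1.35), which oxidises methylcytosine. With the length offset 4 were lower.

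Clustered protocadherins, of which single cells pick a few isoforms by promoter choice, had 11 of 50 lower (22.0%) and 7 higher (14.0%), no more than the 24.5% and 23.6% among all genes tested. Without any single D3 library 7 were lower, and 4 and 3 were higher without D3 replicates 2 and 3. Within the gamma cluster, Pcdhgb4 had no read in D1 and was at 8.19, 8.11, 8.12 and 6.9 CPM in D3, at least 166-fold higher, with D2 at 1.46 to 1.96 CPM. Pcdhga5 was at 4.17, 1.18, 3.33 and 4.09 CPM in D1 and 27.9, 24.1, 22.8 and 20.1 CPM in D3. Pcdhga3 was at 23.3 to 29.3 CPM in D1 and 1.45, 0.968, 1.22 and 0.91 CPM in D3, and Pcdhga7 at 3.79, 4.26, 3.64 and 3.89 against 0.106, 0, 0 and 0.103 CPM. Pcdhga3 was also low at other passages of the first derivation, at 1.05 to 1.58 CPM at P5 and 0.124 to 2.03 CPM at P30. Against all passages its log2FC was -1.65, while that of Pcdhga7 was -6.44. By the on and off rule Pcdhgb4 could not overlap between D1 and D3. Pcdhga5, Pcdhga3 and Pcdhga7, picked for their large log2FC, did not overlap. Gamma isoforms share their last exons, so the split of reads between them is uncertain.

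Sterol genes differed in a single direction, with 18 of 21 higher in D3 and none lower (median log2FC 0.98; 19 and none with the length offset, and 19 and none with D3 replicates 1 and 2). Fdps, which makes farnesyl pyrophosphate, was at 80.1, 82.3, 89.9 and 86.0 CPM in D1 and at 286, 307, 306 and 279 CPM in D3 (log2FC 1.79 ± 0.0688, adjusted p = 1e-09), with D2 at 106 to 115 CPM, and Acat2, a thiolase that makes acetoacetyl-CoA, had a log2FC of 1.53. At P5 Fdps was at 241 to 265 CPM. Within the first derivation, 20 of 22 sterol genes were higher at P5 than in D1 (median log2FC 1.0). At P30 14 of 22 were higher than in D1, and at neither passage was any lower. D3 against all passages of the first derivation had 18 of 22 higher and 2 lower (median log2FC 0.53). Cytosolic ribosomal protein genes were higher in 77 of 80 and lower in none (median log2FC 0.94), with a median exon length of 1781 bases against 4536 for all genes. The length offset left 63 higher and 3 lower with a median of 0.48. At P5 61 of 80 were higher than in D1 and 3 lower (median log2FC 0.34), and at P30 6 were higher and 27 lower. D3 against all passages of the first derivation had 80 higher and none lower (median log2FC 0.89). Rps25 was at 175, 185, 204 and 172 CPM in D1 and at 505, 589, 869 and 814 CPM in D3, higher in replicates 3 and 4, the libraries with the steeper length gradient.

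MHC class I and interferon genes were lower in 19 of 26 and higher in none (median log2FC -1.18; 21 and none with the length offset). H2-D1, a heavy chain of MHC class I, was at 50.0, 45.1, 45.8 and 51.2 CPM in D1, at 12.9, 14.2 and 15.7 CPM in D2 and at 11.3, 12.4, 10.5 and 10.3 CPM in D3 (log2FC -2.12 ± 0.0973, adjusted p = 4.3e-09). The interferon-induced Rsad2, an antiviral enzyme, was at 8.91, 10.0, 12.1 and 10.9 CPM in D1 and 1.52, 2.32, 2.69 and 2.04 CPM in D3, and Usp18 had a log2FC of -3.77. At P30 the first derivation reached 159 to 175 CPM of H2-D1 and 168 to 182 CPM of Rsad2. Of 21 genes of amino acid supply and the ATF4 response 10 were lower and 1 higher. For P5 against D1, 19 of the 21 were lower and none higher (median log2FC -1.2). D3 against all passages of the first derivation had 8 lower and 5 higher. The arginine and lysine transporter Slc7a3 was at 21.5, 14.5, 19.5 and 21.6 CPM in D1, at 0.441, 0.686, 0.419 and 0.282 CPM in D3 and at 51.8 to 60.1 CPM in D2, and the transcription factor Atf5 had a log2FC of -1.63, while Phgdh, the first enzyme of serine synthesis, had one of 0.72. Atf5 was at 1372 to 1396 CPM in D1, 350 to 509 in D3, 222 to 234 at P5 and 432 to 474 at P30. Against all passages of the first derivation its log2FC was -0.23. Glycolysis and hypoxia genes had 4 of 23 (17.4%) higher and 6 (26.1%) lower, beside 23.6% and 24.5% among all genes tested. At P5 15 of 23 were lower than in D1 and 2 higher.

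Cell cycle genes were higher in 14 of 33 (42.4%) and lower in 8 (24.2%), beside 23.6% and 24.5% among all genes tested. The mitotic cyclin Ccnb2 (log2FC 1.57 ± 0.0836, adjusted p = 1.6e-08) and the proliferation marker Mki67 (0.48, adjusted p = 0.0014) were higher, and the G1 cyclin Ccnd2 was lower (-0.90). At P5 18 of 33 cell cycle genes were higher than in D1 and 5 lower, and at P30 5 were higher and 5 lower. D3 against all passages of the first derivation had 16 higher and 6 lower. Of 44 genes of the matrix and its receptors 18 were lower and 5 higher, with the length offset 14 and 10. D3 against all passages of the first derivation again had 18 and 5. For P5 against D1, 17 of 43 were lower and 5 higher. Tnc, a glycoprotein of the progenitor niche, had a log2FC of -1.45 in D3. Among 16 mesenchymal and mural genes 6 were lower and 2 higher, with Col3a1 at 14.0 to 22.4 CPM in D1 and 1.54 to 2.24 CPM in D3, Postn at a log2FC of -3.92, and Fbln2 at 89.3 to 105 CPM in D1 and 346 to 484 CPM in D3. Their summed level was 277 to 328 CPM in D1, 631 to 715 in D2 and 495 to 642 in D3. Fbln2 alone held 89.3 to 105 CPM of that sum in D1, 359 to 447 in D2 and 346 to 484 in D3. Between D1 and D3 the sum thus followed Fbln2 and not the 6 lower genes. The part of any mesenchymal or mural cells in the other lists was not tested. Classical cadherins and ephrins had 11 of 25 lower and 4 higher. Few genes of other cell types passed the filter: 3 of 5 pluripotency genes, 2 of 4 neural crest genes and 1 of 5 endoderm genes were lower and none was higher, and none of the 3 endothelial, 3 X inactivation centre and 1 myeloid gene was called.

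Outside the lists, the genes with the largest differences among those at 10 CPM or more included Tspan6, a tetraspanin of chromosome X at 145, 139, 159 and 139 CPM in D1, 169 to 179 CPM in D2 and 1.47, 2.24, 2.23 and 1.67 CPM in D3. The lysosomal protease Ctsc (20.6 to 23.7 CPM in D1), the phosphatase Mtmr1 (25.7 to 30.5) and the co-chaperone Bag3 (14.8 to 19.9) were at no more than 0.175 CPM in D3, and D2 stood with D1 for each. In the other direction, the receptor Qrfpr was at 0.137, 0.407, 0.697 and 0.531 CPM in D1, at 14.3, 16.3, 23.1 and 20.2 CPM in D3 and at 20.9 to 25.1 CPM in D2. Within the first derivation Qrfpr was at 3.02 to 4.68 CPM at P5 and 20.3 to 29.7 CPM at P30. The calmodulin-binding Nrgn was at 3.62, 5.48, 3.53 and 5.4 CPM in D1 and 103, 107, 113 and 91.7 CPM in D3, but at 10.0 to 15.6 CPM in D2. Gmpr, a reductase of GMP, Cryab, a small heat shock protein, and Myl9, a myosin light chain, had log2FC of 3.80, 3.27 and 4.09, and Pcp4l1 one of 3.37.

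D2 shared the state of neither derivation throughout. For each gene its 6 libraries were placed above or below the midpoint of the D1 and D3 means on the log2 scale. Of the 6904 called genes, all 6 D2 libraries fell on the D1 side for 3352 (48.6%), on the D3 side for 2011 (29.1%), and 1541 (22.3%) were split. Over all 14370 genes tested the shares were 40.4%, 29.8% and 29.8%. With an absolute log2FC of at least 1, 971 of 2168 genes (44.8%) were on the D1 side and 635 (29.3%) on the D3 side. On a scale from 0 at the D1 mean to 1 at the D3 mean, those 2168 genes had a median D2 position of 0.397, with 484 below 0 and 283 above 1, where D2 lay outside the interval between the others. Among lists, D2 stood on the D1 side for 76 of 77 called ribosomal protein genes, whose sum was 24892 to 27541 CPM in D1, 39838 to 55507 in D3 and beyond D1 in D2, at 13508 to 15679 CPM. It was on the D1 side for 9 of 10 glycolysis genes and 14 of 20 progenitor genes.

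**Figure D5:**
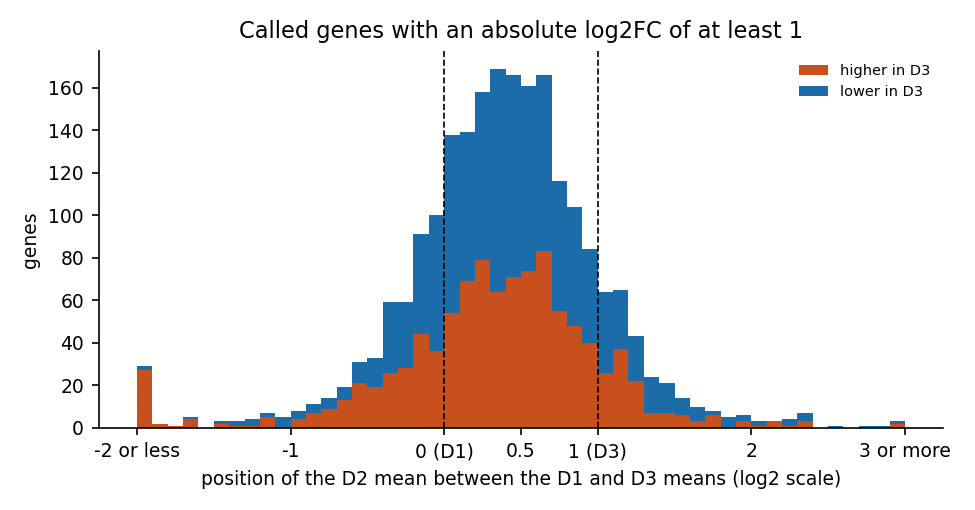
Histogram of the position of the D2 mean between the D1 mean (0) and the D3 mean (1) on the log2 scale for the 2168 genes called with an absolute log2FC of at least 1, values beyond the axis gathered in the end bars. The median is 0.397, with 484 genes below 0 and 283 above 1.

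The median log2FC per chromosome ran from -0.19 on chromosome 4 (159 of 857 genes higher, 272 lower) to 0.21 on chromosome 13 (149 of 550 higher, 102 lower), and it was 0.12 on chromosome X. Among genes of at least 10 CPM the medians of chromosomes 4 and 13 were -0.19 and 0.11. For P5 and P30 against D1 chromosome 4 had medians of 0.14 and -0.03.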

How the data were processed

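RNA on HA-tagged ribosomes of cultured NPC and ESC was measured in 26 libraries of 6 groups, each named by its label. The authors deposited raw counts of reads per gene by Entrez identifier: per their notes reads were trimmed with Trimmomatic, aligned to mm10 with HISAT2 and counted with featureCounts, and both mates of a pair were counted. Of 27179 genes 25275 were named, and placed, from RefSeq on GRCm38.p6, and 1886 have no name here. Counts of D3 and D1 were compared with edgeR 4.0.16 (R 4.3.3) by the quasi-likelihood test after TMM scaling and filterByExpr at its minimum of 10 counts, with Benjamini-Hochberg adjustment over all genes tested and a threshold of 0.01. The SE is the log2FC over the square root of F. The step was tested on simulated data. Levels are CPM over TMM-scaled library sizes of all 26 libraries. Tables and plots were made with Python 3.11.15, numpy 2.4.6, pandas 2.3.3 and matplotlib 3.10.9.

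The members, the 32 gene lists and the tests were chosen with earlier results of these data known. The genes named are the 10 with the largest log2FC in each direction at 10 CPM or more with libraries that do not overlap, up to 5 called genes per list and direction with the largest log2FC at 1 CPM or more, the fixed markers, and the genes on in one derivation and off in the other. Not every gene the rule allows is reported here. Rtl8a, Gm11538, Gpx7, Zfp182, 3830406C13Rik, Rab33a, Evc and Stk32b were chosen after their values were seen. Sox9, Vim and Slc1a3 are among the 10 fixed progenitor markers. Alternatives were DESeq2 1.42.0 and its size factors, no filter, at least 1 CPM in 4 libraries, halved counts, the replicate number as a block, all derivations in 1 fit and each library left out. The length offset is a smooth curve (span 0.5) of log2 union-exon length from GENCODE M21 fitted per library, added after seeing the data, as were the fits with D3 replicates 1 and 2 or 3 and 4 only. Replicate numbers did not pair D1 with D3 (r of deviations 0.0724, -0.0182, 0.0304 and -0.00997). No library was a copy of another. Whether counting used strand is not given in the sources used here, and reads of overlapping genes may not be separable.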

Additional observations from a re-analysis of the deposited data

Results flagged for a closer look

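Within 325 sets of libraries, 1 gene in 1 derivation each, 10 had a library set apart from the rest of its group by Dixon's test at 95%, and chance flags about 1 in 20. In D3, replicate 4 was lowest for Pcdhgb4 (6.9 CPM, the others 8.11 to 8.19), Cemip (1.51 CPM, the others 2.88 to 3.11), Gas1 (231 CPM, the others 255 to 257) and Crabp1 (3.35 CPM, the others 4.01 to 4.05). In D1, replicate 2 was lowest for Olig1 (5437 CPM, the others 5664 to 5683) and Peg3 (83.2 CPM, the others 94.5 to 96.3), and replicate 1 was highest for Tet3 (250 CPM, the others 204 to 210.0). In D2, replicate 6 was highest for Sox9 (261 CPM, the others 226 to 238), Egfr (220.0 CPM, the others 170.0 to 185) and Evc (60.1 CPM, the others 47.3 to 51.7).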

How the results depend on the processing

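The counts of genes higher and lower in D3 stayed within 1.5 times of 3390 and 3514 under DESeq2 (3825 and 3859), its size factors, both other filters, halved counts, the fit of all derivations, the length offset, either pair of D3 libraries, and with each library left out (2915 to 3368 and 3031 to 3478). The replicate block gave 3445 and 3440, and since the numbers did not pair the libraries it is given here only. Asking for an absolute log2FC of at least 1 left 1014 and 1154, with D2 on the D1 side for 971, on the D3 side for 635 and split for 562. Counts of genes on in one derivation only rest on their limits: 9 and 2 with on at 2 and off at 0.05 CPM, and 17 genes on in D3 with on at 0.5 CPM. That last count ran from 6 to 12 with a library left out, 11 without D1 replicate 3 and 12 without D1 replicate 4, against 6. The median of chromosome 4 was -0.23 with the length offset and -0.18 to -0.15 with a library left out, and that of chromosome 13 was 0.11 among genes of at least 10 CPM. Genes not called changed sign: Pax6 to 0.08 with the length offset (0.1 with the block as well), Evc to 0.12 (0.13 with the block) and to 0.03 with D3 replicates 1 and 2, and Vim to -0.01 with D3 replicates 3 and 4. Among the 2294 combinations of a named gene and a setting, 23 lost a call, those of Bambi, Hes5, Nkx2-2, Lhx2, Fabp7, Crabp1, Zdbf2 and Mki67, and 5 gained one. The cause was not tested.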
